A study of Mus musculus with 30 samples.

Results

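The libraries described here are the 10 taken 6 h after treatment from 3T3-L1 cells, a mouse preadipocyte line, out of 30 in the study. They were compared as 4 libraries of culture replicates 3 and 4 against 6 libraries of culture replicates 1, 2 and 5. The sets were chosen by measured values of the libraries labelled 12 days, in which replicates 3 and 4 had weak expression of adipocyte genes. All cells were the same unmodified line, at passage 10 or below. They were grown in medium with newborn calf serum, held for a stabilisation period, and moved to a differentiation medium with IBMX (a phosphodiesterase inhibitor that raises cAMP) at 500 µM, insulin at 100 nM and fetal bovine serum. After 2 days in that medium it was renewed without addition (control) or with the herbicide quizalofop-p-ethyl (QpE) at 50 µM. Each set therefore held control and QpE libraries from every one of its replicate numbers: 2 of each for replicates 3 and 4, and 3 of each for replicates 1, 2 and 5. The cells at 6 h had already been exposed to the inducers for 2 days, so these libraries do not precede the start of induction.

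The label of a library gives its culture replicate from 1 to 5 in each of 6 groups. Whether a number stands for the same flask, passage, day or plate at different times or treatments is not stated, and neither is whether the 2 libraries of a number at 6 h came from separate wells. The p-values below measure the spread between libraries, which may be smaller than that between independent cultures. A comparison of the mean of each replicate number, 2 numbers against 3, is therefore given beside the main counts. With 2 against 3, an exact permutation test of a single value cannot give a p below 0.1.

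Fat cell formation in 3T3-L1 cells follows a known order. Hormonal inducers switch on the transcription factors C/EBPβ and C/EBPδ, which activate PPARγ and C/EBPα, and these in turn activate genes of lipid storage and the secreted hormones of fat tissue. Cells that spread and hold tension on actin fibres keep the transcription cofactors YAP, TAZ and MRTF in the nucleus, where MRTF works with serum response factor (SRF); tension, TGF-β and activin are known to hold back adipogenesis, and insulin and IGF-1 to promote it.

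The values that chose the sets are given as a description only. The mean log2(FPKM + 1) over 30 adipocyte genes in the 12 day control libraries was 6.72, 6.65 and 6.76 in replicates 1, 2 and 5, and 5.04 and 4.78 in replicates 3 and 4 (FPKM are fragments mapped to a transcript, scaled to its length and to the library's size). With QpE it was 7.09, 7.18 and 7.09 against 5.95 and 5.68. At 6 h the same mean was 3.22, 2.95 and 3.10 in control replicates 1, 2 and 5 and 2.78 and 2.89 in replicates 3 and 4, and with QpE 3.18, 2.93 and 2.99 against 2.85 and 2.50. The sets were thus in the same order at 6 h within each treatment, with a far smaller gap. At 24 h that order held in control libraries (3.77, 4.11 and 3.97 in replicates 1, 2 and 5 against 3.52 and 2.79). With QpE it did not hold at 24 h, as replicate 3 (3.84) was above replicate 5 (3.60).

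**Figure D1:**
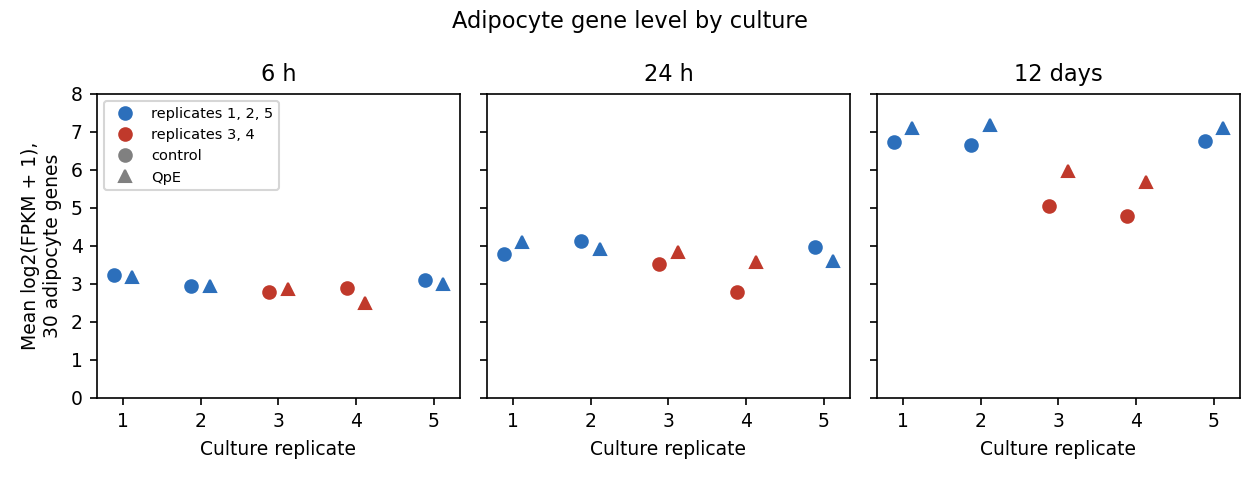
Mean log2(FPKM + 1) of 30 adipocyte genes (vertical axis) in each library, by culture replicate (horizontal axis), at 6 h, 24 h and 12 days. Circles are control and triangles QpE libraries; red marks replicates 3 and 4, whose 12 day values of 4.78 to 5.95 chose them, and whose 6 h values of 2.50 to 2.89 lie below the 2.93 to 3.22 of the other replicates.

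Estimated depth overlapped between the sets, at 12.24 to 14.04 for replicates 3 and 4 and 10.1 to 15.7 for replicates 1, 2 and 5, in units of 1e+06 fragments. The cells carried the markers of the labelled type in both sets: 14 fibroblast and preadipocyte markers summed to 2777 to 3247 FPKM in replicates 3 and 4 and 2417 to 3412 FPKM in the others, with Dpp4 and Tcf21 at 0 in all 10 libraries and none of 11 tested markers called different in the main comparison. On means of replicate numbers 1 of them was called lower, with unnamed transcripts joined 1, and without replicate 5, 2. Markers of other cell types were near the floor: 10 macrophage markers summed to 2.39 to 3.26 and 1.05 to 3.79 FPKM with Adgre1, Tyrobp, Itgam and Cd163 at 0 throughout, 8 endothelial markers to 2.01 to 3.15 and 1.78 to 3.37 FPKM with Emcn and Cldn5 at 0, and 8 skeletal muscle markers to 1.44 to 2.23 and 0.645 to 2.70 FPKM with Myod1, Myog, Myf5 and Ckm at 0. Of 9 bone and cartilage markers, Spp1 (osteopontin, also made by fibroblasts) supplied the signal and was higher in replicates 3 and 4, while Ibsp was at 0.

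At 6 h, 396 genes were called higher and 486 lower in replicates 3 and 4, out of 11721 tested (7.52% called; 3.38% higher and 4.15% lower; limma with a mean-variance trend on log2(FPKM + 1), treatment as covariate, Benjamini-Hochberg adjusted p under 0.05). Most differences were moderate: the median was 0.46 among genes called higher and -0.43 among those called lower on the log2 scale, and 28 and 37 genes passed a log2 difference of 1 in each direction. In 811 of the 882 called genes the 4 libraries of one set did not overlap the 6 of the other, and 1358 of all genes tested (11.6%; 5.15% higher and 6.43% lower) had no overlap. On means of replicate numbers 103 genes were called higher and 92 lower (1.66%), and 174 of the 882 were called in both ways. Leaving out 1 replicate number lowered the counts to 115 higher and 101 lower without replicate 1, 127 and 126 without replicate 2, 67 and 76 without replicate 3, 94 and 88 without replicate 4, and 284 and 340 without replicate 5.

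The adipocyte programme was partly lower at 6 h. Of 30 adipocyte genes 22 were tested; 6 were called lower and none higher, against 4.15% of all genes called lower, with a median log2 difference of -0.41 against -0.01 over all genes. The 6 were Adipoq (adiponectin, a fat cell hormone), Cidec (a lipid droplet protein that enlarges droplets), Acsl1 (which activates long-chain fatty acids), Cebpa (C/EBPα), Dgat2 (the last step of triglyceride synthesis) and Lpin1 (which supplies diacylglycerol for it). Lep, Retn, Gpd1, Slc2a4, Aqp7, Pck1, Adrb3 and Thrsp were below the minimum mean of 1 FPKM. In bulk RNA, fewer differentiating cells and less RNA of these genes per cell cannot be told apart. The count was 1 on means of replicate numbers and 3, 3, 3, 2 and 4 when replicates 1 to 5 were left out in turn.

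Adipoq (chr16:23146536-23158028, plus strand, GRCm38) was at 7.91 and 5.28 FPKM in the control libraries of replicates 3 and 4 and at 6.58 and 4.30 FPKM in their QpE libraries. In replicates 1, 2 and 5 it ranged from 19.6 to 31.1 FPKM with a median of 23.3. All 4 libraries of replicates 3 and 4 lay well below the lowest of the others. The means were 6.02 ± 1.57 (SD, n = 4) and 23.7 ± 4.25 FPKM (n = 6), a log2 difference of -1.83 ± 0.15 (SE; limma adjusted p = 0.000529), which was called in each of the 5 fits that left out 1 replicate number and on means of replicate numbers (adjusted p = 0.0351).

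Cebpa (chr7:35119293-35121928, plus strand) was at 39.6 and 40.1 FPKM in the control and at 39.7 and 29.98 FPKM in the QpE libraries of replicates 3 and 4. The others ranged from 40.7 to 57.3 FPKM, median 51.8, so the sets came close without overlapping. Its log2 difference was -0.44 ± 0.11 (limma adjusted p = 0.0393), a call made in 1 of the 5 fits without a replicate number. Acsl1 averaged 28.5 ± 5.88 against 55.5 ± 6.94 FPKM, a log2 difference of -0.95 ± 0.14 (limma adjusted p = 0.0065). Cidec averaged 1.82 ± 1.32 against 6.09 ± 0.780 FPKM (log2 difference -1.46, adjusted p = 0.0217), with 0.316 FPKM in the QpE library of replicate 4. It was called in 2 of the 5 fits without a replicate number and not on means of replicate numbers (limma adjusted p = 0.138). With transcripts lacking a gene name added by locus, its difference was -1.13 (limma adjusted p = 0.00314). By its most abundant transcript alone the difference was -0.21 (limma adjusted p = 0.881). Gpat3, an acyltransferase that opens glycerolipid synthesis and is not on the list, was among the largest falls at -1.77 ± 0.44 (adjusted p = 0.0445), from 10.2 ± 2.24 to 2.91 ± 2.18 FPKM, and was at 0.0256 FPKM in the control library of replicate 4.

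Few regulators upstream of these genes were called, and the pro-adipogenic ones leaned lower. Pparg averaged 13.5 ± 4.42 against 21.6 ± 4.72 FPKM, a log2 difference of -0.68 with a 95% interval of -1.23 to -0.13 that did not pass the test over all genes (limma adjusted p = 0.133). Its libraries overlapped, from 7.21 to 17.3 FPKM in replicates 3 and 4 and from 15.7 to 30.2 FPKM in the others. Cebpb, which acts first after induction, had a difference of 0.27 (interval -0.07 to 0.61), Cebpd of -0.28 (-0.78 to 0.23) and Dlk1, the preadipocyte factor that falls during differentiation, of 0.13 (-0.15 to 0.41), none of them called. Over all genes 3.38% were called higher and 4.15% lower. Among 17 tested pro-adipogenic regulators Fgf10 and Cebpa were called lower and Klf5 higher, with a median of -0.19 and 5 differences above 0. With transcripts lacking a gene name added by locus, 6 of the 17 were lower and 1 higher (median -0.25), against 6.84% and 5.45% of all genes. Among 23 tested anti-adipogenic regulators Runx1 and Twist2 were called higher and none lower, with a median of -0.03. Fgf10 (a growth factor made by preadipocytes) averaged 41.0 ± 6.94 against 75.3 ± 8.56 FPKM, a log2 difference of -0.87 ± 0.11 (adjusted p = 0.00336). Klf5 differed by 0.52 (limma adjusted p = 0.0343) and Twist2 by 0.38 (limma adjusted p = 0.0277). Klf5 was called on means of replicate numbers (limma adjusted p = 0.0461) but in 0 of the 5 fits without a replicate number. Twist2 was called in 1 of the 5 and not on means (limma adjusted p = 0.0525), and its sets of libraries overlapped.

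Runx1 (chr16:92601466-92826149, minus strand), a transcription factor that is high in undifferentiated mesenchymal cells, was at 19.2 and 19.6 FPKM in the control and 18.8 and 21.5 FPKM in the QpE libraries of replicates 3 and 4. The other 6 libraries ranged from 7.36 to 9.41 FPKM, median 8.38. The 2 sets were far apart and narrow, and the log2 difference was 1.15 ± 0.08 (limma adjusted p = 0.000256), called in all 5 fits without a replicate number.

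Some adipocyte genes depended on how transcripts were assigned. The deposited table holds assembled transcripts with no gene name, and the values above leave them out. When those lying in the locus of a single named gene were added to it, 1480 of 12041 genes were called (12.3%; 656 or 5.45% higher and 824 or 6.84% lower), including 852 of the 882, and 12 of 24 tested adipocyte genes were lower and 1, Scd1 (a fatty acid desaturase), was higher. Lpl (lipoprotein lipase) was the clearest case. By named transcripts it was at 15.4 FPKM in control replicate 5 and 20.4 FPKM in QpE replicate 2, against 307 to 342 FPKM in the other libraries of replicates 1, 2 and 5 and 178 to 211 FPKM in replicates 3 and 4, and its log2 difference was 0.63 ± 1.04 (adjusted p = 0.79). With the unnamed transcripts those 2 libraries rose to 478 and 461 FPKM, the means became 198 ± 11.7 and 378 ± 71.7 FPKM, and the difference was -0.91 (adjusted p = 0.00279). Pparg (-0.51, adjusted p = 0.033), Plin1, which coats lipid droplets (-0.81, adjusted p = 0.0116), Cd36, a fatty acid transporter (-0.89, adjusted p = 0.0072), and Cebpd (-0.52, adjusted p = 0.0415) were called lower only in this form. Fabp4 (-0.06), Fabp5 (-0.66) and Cfd (-0.50), carriers and a secreted protease of fat cells, were called in neither, with intervals by named transcripts of -0.83 to 0.71, -1.20 to -0.13 and -1.30 to 0.30.

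The insulin and IGF list had 6 of 13 tested members lower and none higher, against 4.15% of all genes called lower and 3.38% higher, with a median log2 difference of -0.29. These were Igf1 (the growth factor itself), its carriers Igfbp3 and Igfbp4, the clearance receptor Igf2r, and Irs1 and Pik3r1, which relay the signal of the insulin and IGF-1 receptors. The receptors were not called: Igf1r differed by -0.29 (adjusted p = 0.61) and Insr by 0.17 (adjusted p = 0.90). The count was 2 on means of replicate numbers and 3, 4, 3, 2 and 5 without replicates 1 to 5 in turn.

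Igf1 (chr10:87858265-87937042, plus strand) was at 58.6 and 40.8 FPKM in the control and 51.7 and 46.5 FPKM in the QpE libraries of replicates 3 and 4, and between 108 and 137 FPKM, median 118, in the others. No library came near the other set. The means were 49.4 ± 7.58 and 120 ± 10.7 FPKM and the log2 difference was -1.27 ± 0.10 (limma adjusted p = 0.000389; 5 of 5 fits without a replicate number). Igfbp3 averaged 8.52 ± 0.990 against 15.6 ± 1.34 FPKM (-0.80 ± 0.09, adjusted p = 0.00214). Igfbp4 fell from 413 ± 54.2 to 200 ± 84.1 FPKM by named transcripts, a difference of -1.11, but only by -0.41 with the unnamed ones (adjusted p = 0.0193). Irs1 differed by -0.69 (adjusted p = 0.0249), Pik3r1 by -0.48 (adjusted p = 0.009) and Igf2r by -0.34 (adjusted p = 0.00497).

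**Figure D2:**
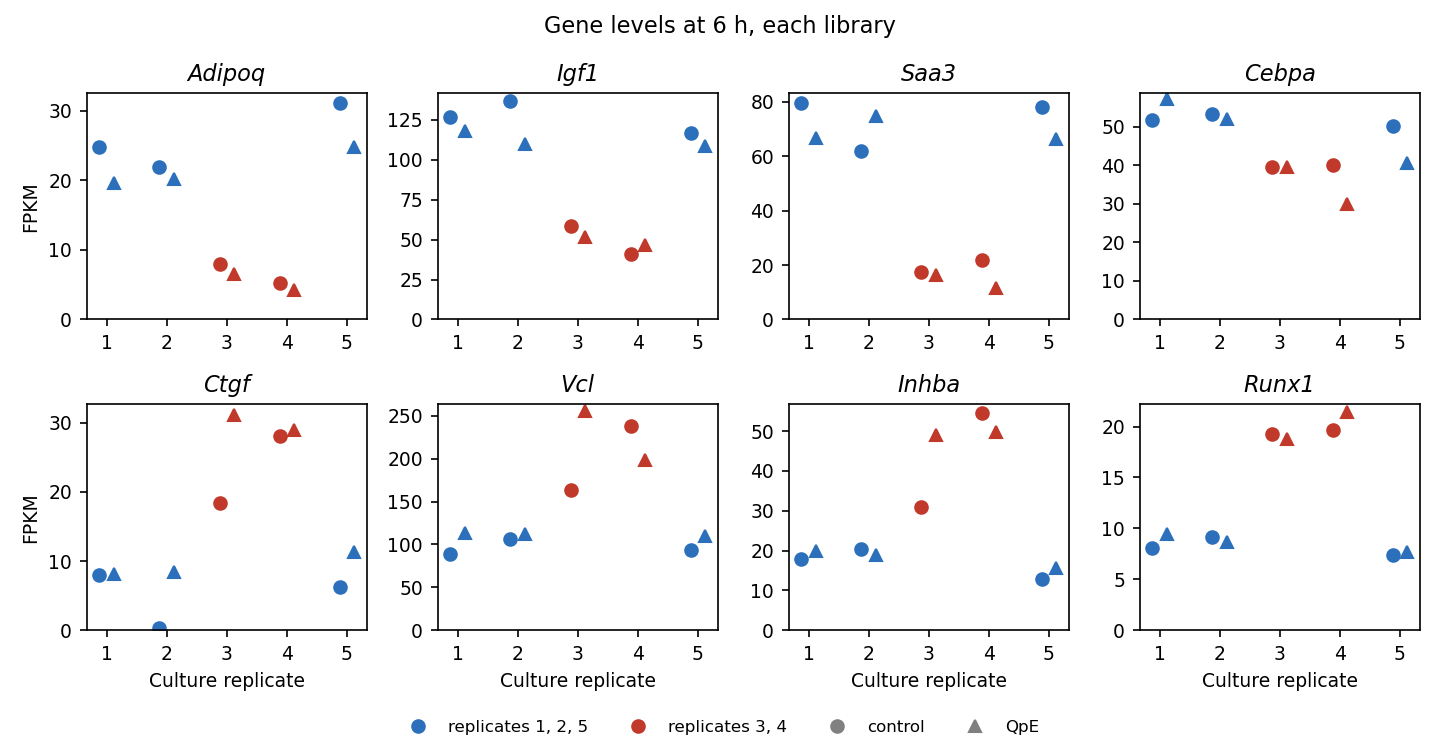
FPKM at 6 h (vertical axes, from 0) of 8 genes in each library by culture replicate. Red marks replicates 3 and 4 and blue the others, circles control and triangles QpE; in Adipoq, Igf1, Saa3 and Cebpa the red points all lie below the blue ones, and in Ctgf, Vcl, Inhba and Runx1 all above.

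Genes of the contractile cytoskeleton and targets of SRF and YAP were higher in replicates 3 and 4. Of 22 genes listed 20 were tested and 12 were called higher, against 3.38% of all genes; none was called lower, 19 of 20 differences were above 0 and the median was 0.55. In all 12 called genes but Cyr61 the 2 sets of libraries did not overlap. The same was true of most called genes (811 of 882), so this does not set the list apart. The 12 were the secreted YAP targets Ctgf (CCN2) and Cyr61 (CCN1), the adhesion proteins vinculin (Vcl), Ajuba and Tgfb1i1, the matrix protein Thbs1, the smooth muscle actins Acta2 and Actg2, the tropomyosins Tpm2 and Tpm4, the non-muscle myosin Myh9, and Srf itself. Cnn1 and Ankrd1 were below the minimum level. On means of replicate numbers 8 were called, and 6, 6, 1, 4 and 9 were called without replicates 1 to 5 in turn. The single call without replicate 3 left 2 libraries in that set.

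The promoters of 4 of these genes are shown because they carry the sequence that SRF binds or the one that the TEAD partners of YAP bind. Each is the 250 bases before the RefSeq start (GRCm38.p6), read 5′ to 3′ along the gene. Capitals mark CArG boxes, taken as the exact pattern CCWWWWWWGG (W is A or T), and matches to GGAATG or its complement CATTCC. Vcl lies at chr14:20929148-20929397 (plus strand), Srf at chr17:46556163-46556412 (minus), Cyr61 at chr3:145649986-145650235 (minus) and Acta2 at chr19:34255374-34255623 (minus).
Vcl: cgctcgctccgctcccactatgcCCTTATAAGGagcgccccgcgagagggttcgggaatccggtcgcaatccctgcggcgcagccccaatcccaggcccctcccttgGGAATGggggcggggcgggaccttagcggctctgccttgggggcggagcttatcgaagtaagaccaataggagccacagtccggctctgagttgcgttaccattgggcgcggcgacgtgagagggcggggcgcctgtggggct
Srf: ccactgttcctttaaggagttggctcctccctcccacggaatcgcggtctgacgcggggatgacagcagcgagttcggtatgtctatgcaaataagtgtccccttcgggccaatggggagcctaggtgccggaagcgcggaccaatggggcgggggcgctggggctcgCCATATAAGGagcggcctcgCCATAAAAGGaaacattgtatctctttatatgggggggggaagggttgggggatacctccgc
Cyr61: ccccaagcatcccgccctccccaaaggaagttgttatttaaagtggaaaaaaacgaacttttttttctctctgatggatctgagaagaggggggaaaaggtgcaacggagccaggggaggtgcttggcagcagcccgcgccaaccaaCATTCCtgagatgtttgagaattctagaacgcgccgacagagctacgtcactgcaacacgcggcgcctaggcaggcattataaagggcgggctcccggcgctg
Acta2: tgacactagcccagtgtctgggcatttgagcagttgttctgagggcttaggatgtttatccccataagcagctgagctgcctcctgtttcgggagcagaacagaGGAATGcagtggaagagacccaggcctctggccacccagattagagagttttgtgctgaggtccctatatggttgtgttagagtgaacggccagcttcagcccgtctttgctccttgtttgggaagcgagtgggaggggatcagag
A RefSeq promoter was at hand for 8 of the 12 called genes. Over both strands, 2 of the 8 held a CArG box of the exact pattern (1 in Vcl and 2 in Srf). GGAATG was held by 4 (Vcl, Cyr61, Acta2 and Ajuba). Over all 32851 promoter stretches of 250 bases the shares were 1.47% and 12.6%. Near matches to the CArG pattern, such as ccctatatgg and ccttgtttgg in Acta2, were not counted. The 2 motifs did not overlap each other. As the list was drawn up as targets of SRF and YAP, a larger share of these motifs is favoured by the choice of genes. Promoters of members not called were not searched, so the shares say nothing about the difference between the sets. A match of these letters is a description of the sequence and does not show binding.

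Vcl (chr14:20929398-21033676, plus strand) was at 163 and 239 FPKM in the control and 255 and 199 FPKM in the QpE libraries of replicates 3 and 4. In the others it ranged from 89.3 to 114 FPKM, median 108. The lowest library of replicates 3 and 4 was above the highest of the rest, and the log2 difference was 1.01 ± 0.11 (limma adjusted p = 0.00214; 5 of 5 fits without a replicate number; adjusted p = 0.0253 on means of replicate numbers).

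Ctgf (chr10:24595442-24598683, plus strand) had the largest difference of the list. It was at 18.5 and 28.1 FPKM in the control and 31.1 and 28.9 FPKM in the QpE libraries of replicates 3 and 4. In the others it was between 0.401 and 11.3 FPKM, median 8.08, the lowest being control replicate 2. The log2 difference was 2.00 ± 0.48 (adjusted p = 0.0408), called in 1 of 5 fits without a replicate number; with unnamed transcripts added, control replicate 2 was at 9.94 FPKM and the difference was 1.65 (adjusted p = 0.000319).

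Acta2, the marker of myofibroblasts, was at 709 ± 46.7 against 462 ± 67.1 FPKM, a log2 difference of 0.63 ± 0.09 (adjusted p = 0.00572). Actg2 differed by 0.79 (adjusted p = 0.0049), Srf by 0.58 (22.9 ± 3.12 against 14.9 ± 1.78 FPKM, adjusted p = 0.0153) and Cyr61 by 0.88 (adjusted p = 0.0373), whose lowest library in replicates 3 and 4, at 83.1 FPKM, was under the highest of the others at 93.4 FPKM. Of the 8 tested members not called, Flna had a difference of 0.63 (adjusted p = 0.10) and Tpm1 of -0.04 (adjusted p = 0.83).

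Within replicates 3 and 4, most of these genes did not follow the treatment or the replicate number. Ctgf was an exception, with both QpE libraries (31.1 and 28.9 FPKM) above both control ones (18.5 and 28.1 FPKM). In 9 of the 12, control replicate 4 and QpE replicate 3 were both above control replicate 3 and QpE replicate 4; Vcl is one of them. The same held for 173 of the 396 genes called higher (43.7%) and for 2083 of all 11721 genes (17.8%), and the reverse order held for 216 of the 486 called lower (44.4%) and 26.6% of all. This order was noticed after the values were seen, and whether these 2 libraries shared a handling step was not tested.

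Of 26 tested genes of the TGF-β and BMP pathway, 6 were called higher and none lower, against 3.38% and 4.15% of all genes, with a median of 0.11. Among them were Inhba (the subunit of activin A), Ltbp1 (which stores latent TGF-β in the matrix), the feedback inhibitor Smad7, the BMP antagonist Grem1 and the BMP target Id1. The receptors Tgfbr1, Tgfbr2, Tgfbr3 and Acvrl1 and the ligands Tgfb2 and Tgfb3 were not called, with differences from -0.34 (Tgfb2) to 0.32 (Tgfbr1). The count was 3 on means of replicate numbers and 2, 2, 1, 2 and 4 without replicates 1 to 5 in turn.

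Inhba (chr13:16011851-16031621, plus strand) was at 30.8 and 54.6 FPKM in the control and 48.9 and 49.9 FPKM in the QpE libraries of replicates 3 and 4, and at 12.8 to 20.5 FPKM, median 18.4, in the others. Every library of replicates 3 and 4 was above all of the rest, and the log2 difference was 1.33 ± 0.17 (limma adjusted p = 0.00403). Inhba was called in 4 of the 5 fits without a replicate number, but not on means of replicate numbers (limma adjusted p = 0.0557). By its most abundant transcript alone the difference was 0.77 and not called (limma adjusted p = 0.0948). Ltbp1 differed by 0.87 (adjusted p = 0.00656), Grem1 by 0.66 (adjusted p = 0.0146), Smad7 by 0.58 (adjusted p = 0.0304) and Id1 by 0.25 (adjusted p = 0.0318).

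Early response genes leaned the same way. Of 12 tested, 4 were called higher and none lower (median 0.34), against 3.38% and 4.15% of all genes. The 4 were Fosl1, Fosl2 and Junb, all parts of AP-1, and Ier3. Fosl1 averaged 153 ± 39.2 against 71.4 ± 15.2 FPKM (1.08 ± 0.19, adjusted p = 0.0119); none of the 4 was called when replicate 2 or 3 was left out. Nr4a1, a nuclear receptor induced by cAMP, differed by 0.84 (adjusted p = 0.0329) and Nfatc1, which responds to calcium through calcineurin, by 1.22 ± 0.09 (8.41 ± 0.559 against 3.04 ± 0.323 FPKM, adjusted p = 0.0003). Other large rises by the same test were Ramp3, a receptor partner for adrenomedullin (1.27, from 19.2 ± 4.80 to 47.3 ± 9.17 FPKM, adjusted p = 0.00312), the prolactin-family hormone Prl2c3 (1.32, adjusted p = 0.0271), whose locus holds 2 genes, the protease inhibitor Wfdc12 (1.25, adjusted p = 0.00239) and the potassium channel Kcnn4 (1.18, adjusted p = 0.00888).

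Matrix genes went both ways. Against 4.15% of all genes called lower and 3.38% higher, 8 of 32 tested matrix proteins and proteases were lower and 4 higher (median -0.24). Of 17 tested collagen chains 3 were lower and 1 higher (median -0.08). The lower ones included the proteases Mmp3, Adamts5 and Adamts1, the small proteoglycans Ogn, Aspn, Dcn and Bgn, the crosslinking enzyme Loxl1, and the fibrillar collagens Col3a1 and Col5a2 with Col15a1. The higher ones were fibronectin (Fn1), the protease inhibitors Timp1 and Timp3, the protease Mmp11 and the minor chain Col5a3. Without replicate 5, 13 matrix genes and 5 collagen chains were lower; without replicates 1 to 4 in turn the matrix count was 2, 3, 1 and 3, and on means of replicate numbers it was 3 lower and none higher.

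Col3a1 (chr1:45311538-45349706, plus strand), the chain of type III collagen, was at 1642 and 1375 FPKM in the control and 1458 and 1594 FPKM in the QpE libraries of replicates 3 and 4, against 2567 to 2860 FPKM, median 2746, in the others. The 2 sets were separated by far more than the range within either, with a log2 difference of -0.84 ± 0.07 (limma adjusted p = 0.000615). Mmp3, the protease stromelysin-1, fell by 1.35 on the log2 scale (adjusted p = 0.0135), from 125.1 ± 36.9 to 46.5 ± 5.03 FPKM, with replicate 5 between the other numbers at 75.9 and 79.3 FPKM. Adamts5, an aggrecanase, fell by 1.30 (6.07 ± 1.45 to 1.88 ± 0.677 FPKM, adjusted p = 0.00522). Fn1 was 576 ± 74.7 against 353 ± 24.1 FPKM (0.70, adjusted p = 0.00283) and Timp3 98.6 ± 5.81 against 48.8 ± 7.10 FPKM (1.01, adjusted p = 0.00178).

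Of 19 tested inflammatory genes, 4 were called lower and 2 higher (median -0.02), against 4.15% and 3.38% of all genes. Saa3 (chr7:46711998-46715700, minus strand), the serum amyloid that fibroblasts and fat cells make in inflammation, was at 17.6 and 21.8 FPKM in the control and 16.5 and 11.6 FPKM in the QpE libraries of replicates 3 and 4. In the others it ranged from 61.8 to 79.6 FPKM, median 70.7, so that the sets were far apart, and the log2 difference was -2.04 ± 0.13 (limma adjusted p = 0.000234; 0.0028 on means of replicate numbers). Complement C3 (-0.69, adjusted p = 0.00152), the chemokine Cxcl5 (-0.69, adjusted p = 0.0282) and the adhesion molecule Vcam1 (-0.63) were also lower, while the IL-33 receptor Il1rl1 (0.80, adjusted p = 0.00219) and the prostaglandin synthase Ptgs2 (1.09, adjusted p = 0.00984) were higher. Aldh1a7, a cytosolic aldehyde dehydrogenase, was at 5.28 ± 0.324 against 16.3 ± 2.25 FPKM (log2 difference -1.46 ± 0.09, adjusted p = 0.000234), and Serpinb9, a granzyme B inhibitor, differed by -1.38 (adjusted p = 0.0115). Spp1 was 130 ± 11.9 against 63.4 ± 2.91 FPKM (1.02, adjusted p = 0.000234).

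Several housekeeping programmes moved little or by small steps. Their counts are set against 3.38% of all genes called higher and 4.15% lower. Of 25 hypoxia and glycolysis genes tested, Slc2a1 (the glucose transporter GLUT1, 0.68, adjusted p = 0.00152), Pfkp, Pkm, Ldha and Aldoa were called higher and Pfkfb3 lower (median 0.12); on means of replicate numbers and without replicate 4, 1 was higher, and no lower call was left on means or in any fit without a replicate number. Of 32 ribosomal protein genes 31 were above 0 with a median of 0.22 and 9 were called higher, but none on means of replicate numbers or without replicate 1, 2, 3 or 4, and 2 without replicate 5. Nqo1, a quinone reductase under NRF2, was higher (88.1 ± 6.29 against 49.5 ± 2.77 FPKM, 0.82 ± 0.06, adjusted p = 0.000256), although Gstm1 and Gstm2 of the same list of 15 were lower. Of 28 DNA replication genes, Ccne1 and E2f1 were called lower; of 27 mitosis genes, 21 cholesterol synthesis and uptake genes and 27 nuclear genes of oxidative phosphorylation, none was called, with medians of 0.06, 0.01 and -0.0018.

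**Figure D3:**
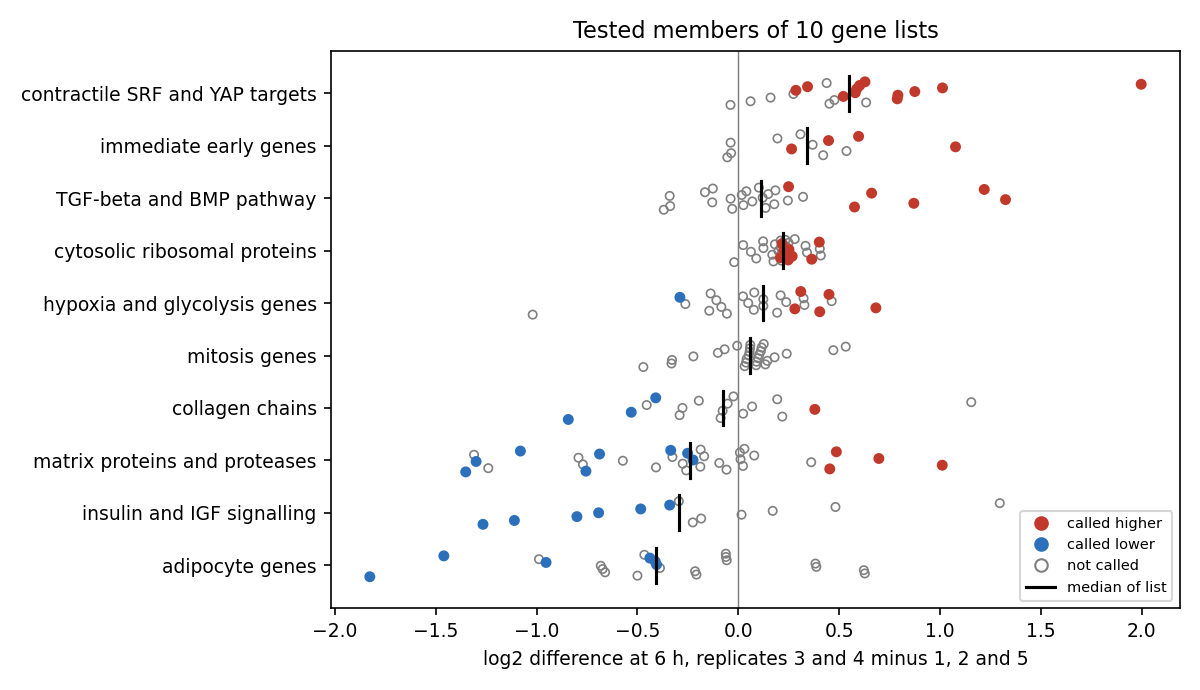
Log2 difference at 6 h, replicates 3 and 4 minus 1, 2 and 5 (horizontal axis), of each tested member of 10 gene lists. Filled points were called (red higher, blue lower), open points were not, and black bars are medians, from 0.55 in the contractile list to -0.41 in the adipocyte list.

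The same split was then made among the 10 libraries labelled 24 h, which the choice of sets did not use. There 90 genes were called higher and 99 lower of 11783 tested (1.6%; 0.764% higher and 0.84% lower), and on means of replicate numbers 3 and 2. Of genes called at 6 h, 69 were called at 24 h in the same direction (26 higher and 43 lower; 7.82% of the 6 h calls and 36.5% of the 24 h calls) and 2 in the opposite one. The sign at 24 h was that of 6 h for 597 of 852 called genes tested at both times (70.1%), compared with 53.6% of all 11436 genes tested at both. Genes called higher at 6 h had a median difference of 0.10 at 24 h, and those called lower -0.11; as they were chosen for a large difference at 6 h, this does not show that the separation narrowed. Over all genes tested, 2551 of 11721 had an unadjusted p under 0.05 at 6 h and 2178 of 11783 at 24 h. Leaving out replicate 2 brought the 24 h calls to 0 higher and 1 lower, and leaving out replicate 1 to 1 and 2.

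The genes called at both times came from several groups. Saa3 was at 10.1 and 3.12 FPKM in the control and 9.68 and 5.96 FPKM in the QpE libraries of replicates 3 and 4 at 24 h, against 34.5 to 48.0 FPKM, median 37.6, in the others, a log2 difference of -2.37 ± 0.26 (limma adjusted p = 0.0111). Igf1 (-0.75, adjusted p = 0.0294), Igfbp3 (-0.97, adjusted p = 0.0221), Mmp3 (-0.77, adjusted p = 0.0221), Ogn (-0.87, adjusted p = 0.0294), Col3a1 (-0.56, adjusted p = 0.0423), Col5a2 (-0.53, adjusted p = 0.0321) and C3 (-0.65, adjusted p = 0.0295) remained lower. Grem1 (0.84, adjusted p = 0.0267), Id1 (0.67, adjusted p = 0.0198), Nqo1 (0.93, adjusted p = 0.0221), Spp1 (0.36, adjusted p = 0.0484) and Prl2c3 (0.80, adjusted p = 0.0459) remained higher.

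Adipoq at 24 h was at 34.4 and 13.4 FPKM in the control and 39.4 and 23.7 FPKM in the QpE libraries of replicates 3 and 4, and between 50.7 and 101 FPKM, median 66.2, in the others. The sets again did not overlap, but the difference of -1.36 ± 0.30 was not called (limma adjusted p = 0.0653). Over the adipocyte list the median was -0.44 at 24 h with 1 of 23 tested called lower, Cd36 (-1.32, adjusted p = 0.0367), against 0.84% of all genes. At 12 days, where these genes chose the sets, the median of the list was -1.25. No adipocyte gene had a called difference between the 2 times.

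The difference between sets changed from 6 h to 24 h in 439 of 11799 genes (3.72%; 2.18% upward and 1.54% downward; set by time term in limma over 20 libraries). Without 1 replicate number the count was 66 to 153. The contractile list gave 5 of 20 with a smaller difference at 24 h, its median falling to 0.14 with none called higher and Tpm1 called lower (-0.58). Vcl was at 32.5 and 32.3 FPKM in the control and 36.3 and 33.5 FPKM in the QpE libraries of replicates 3 and 4 at 24 h, and at 25.4 to 33.9 FPKM, median 31.2, in the others, with overlap. Its level had dropped in both sets and its log2 difference had changed by -0.85 (adjusted p = 0.00579).

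Inhba was at 2.00 to 2.49 FPKM in replicates 3 and 4 and 2.16 to 3.73 FPKM in the others at 24 h (change of -1.499, limma adjusted p = 0.00286). Runx1 at 24 h was at 1.66 to 2.77 and 1.43 to 3.08 FPKM (change -1.06, adjusted p = 0.00551). Adamts5, lower at 6 h, was 15.5 ± 1.93 against 13.3 ± 1.21 FPKM at 24 h (change 1.503, adjusted p = 0.00132), and Fgf10 84.2 ± 7.69 against 85.6 ± 9.08 FPKM (change 0.85, adjusted p = 0.00603). Ctgf was under 0.4 FPKM in all 24 h libraries and was not tested there.

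**Figure D4:**
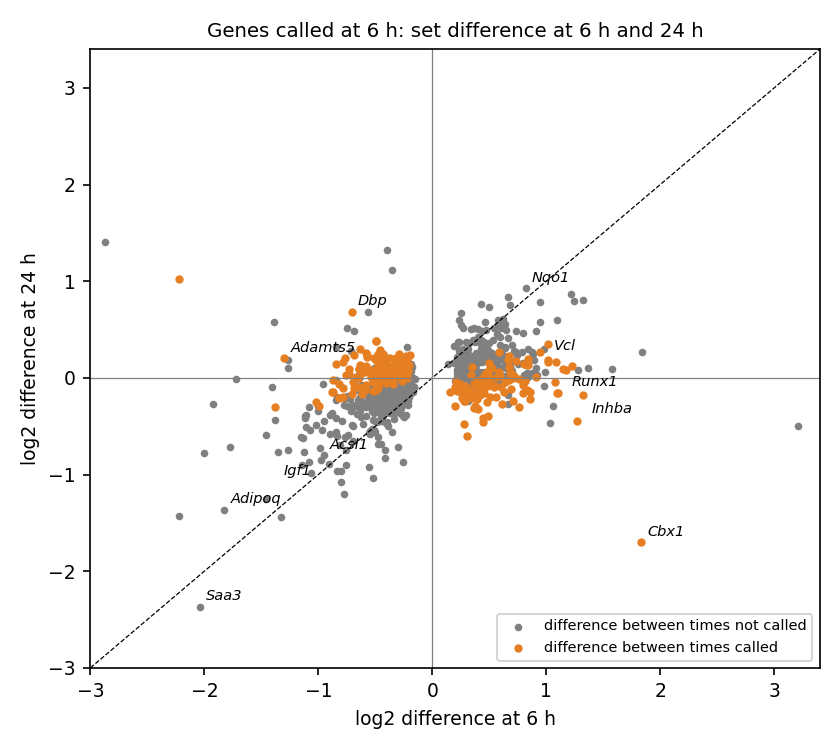
Log2 difference between the sets at 24 h (vertical axis) against that at 6 h (horizontal axis) for genes called at 6 h and tested at both times, with the line of equality dashed. Orange points had a called change between times and lie mostly near 0 on the vertical axis, which the choice of genes called at 6 h favours; Saa3, Adipoq, Igf1 and Nqo1 lie away from it at both times.

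At 24 h the mitosis and cholesterol lists, which had no called member at 6 h, held some. All 28 tested mitosis genes were above 0 in replicates 3 and 4 (median 0.43), and Ccnb1 (0.46), Cenpa (0.35), Cenpf (0.53) and Prc1 (0.46) were called higher; all 21 cholesterol genes were above 0 (median 0.39), with Idi1 (0.50), Insig1 (0.29) and Stard4 (0.52) called. Of 13 early response genes, with 4 called higher at 6 h, Egr1 (-1.16) and Ier2 (-0.42) were called lower at 24 h, and the median was -0.29. Over all genes at 24 h, 0.764% were called higher and 0.84% lower. None of the mitosis or cholesterol genes was called on means of replicate numbers.

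The difference between the sets was not shown to depend on QpE at 6 h. The set by treatment term gave 0 calls among 11721 genes in limma (376 genes had an unadjusted p under 0.05), and 1, 3, 21, 22 and 1 without replicates 1 to 5 in turn. Within control libraries alone, 2 against 3, 5 genes were called higher and 4 lower, and within QpE libraries alone 2 and 1.

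A few of the largest differences by named transcripts rest on how a locus was split. Cbx1, a heterochromatin protein, differed by 1.83 by named transcripts (9.58 ± 1.99 against 1.95 ± 0.283 FPKM) and by -0.08 once unnamed transcripts of its locus were added (limma adjusted p = 0.593). Deaf1, Upf2 and Pgs1, also among the 12 largest rises or falls, were not called in that form. Il11ra1 went from -1.92 to -0.51, remaining called (adjusted p = 0.000712). Gm28006 and Hnrnpm share their loci with other genes, and mt-Atp8 is listed at 0 in all 4 libraries of replicates 3 and 4 and at 0.211 FPKM in QpE replicate 1, beside other mitochondrial genes at 0, so no fold is given for it.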

How the data were processed

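RNA of 30 libraries was sequenced as paired reads of 75 bases, per the labels' protocols. The 10 libraries at 6 h are compared here, and those at 24 h and 12 days are used for reference. The authors deposited FPKM per transcript in a single table; per the submitters' processing notes, HISAT, HISAT2 and StringTie were run on build GRCm38; their versions and settings were not given in the sources used here. In 10 columns the deposited FPKM held 11 values just below 0, which were set to 0.

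FPKM of 133887 named transcripts were summed to 53350 gene names; 16259 unnamed transcripts, 10.5% to 14.2% of a library's FPKM, were left out, and 10567 of them were joined to a gene by locus as an alternative. Genes with a mean of at least 1 FPKM over the 10 libraries were tested as log2(FPKM + 1) in limma 3.58.1 (R 4.3.3) with a trend, treatment as covariate, two-sided, Benjamini-Hochberg adjustment over all tested genes and a threshold of 0.05. Fold changes on this scale understate those of low genes. The fits were tested on simulated data. Depth was estimated from the smallest steps between low FPKM values, so counts are approximate and no counting interval is given.

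Named genes are the 12 largest called rises and falls without overlap and with a higher mean of at least 5 FPKM, up to 3 called genes per direction from each of 39 lists, and 12 adipocyte genes whatever their values, apart from 1 gene not reported here; others, including Acta2, Actg2, Srf, Thbs1, Grem1, Smad7, Id1, Irs1, Pik3r1, Dgat2 and Lpin1, were named after their values were seen. The sets, lists and rules were chosen with earlier results of these data known. Alternatives were other pseudocounts, filters and scalings, the most abundant transcript only, joined transcripts, means of replicate numbers, a replicate block, single treatments, a pooled fit and each replicate number left out.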

Additional observations from a re-analysis of the deposited data

Results flagged for a closer look

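Outlying libraries were sought within each set at 6 h, by the gap of the highest or lowest library to its neighbour relative to the range (Dixon's test, which flags about 1 group in 20 by chance). In replicates 1, 2 and 5 such libraries were control replicate 2 for Ctgf (0.401 FPKM) and Hsd11b1 (52.7 FPKM), control replicate 5 for Igfbp4 (313 FPKM), QpE replicate 1 for mt-Atp8 (0.211 FPKM), QpE replicate 2 for Cbx1 (2.51 FPKM) and Cebpd (4.74 FPKM), and QpE replicate 5 for Fn1 (401 FPKM), Igf2r (44.7 FPKM), Plin1 (34.4 FPKM) and Cd36 (0.1197 FPKM). In replicates 3 and 4 they were control replicate 4 for Nfatc1 (7.58 FPKM) and Junb (51.0 FPKM), QpE replicate 4 for Cebpa (29.98 FPKM) and Dgat2 (10.1 FPKM), and QpE replicate 3 for Lpin1 (4.45 FPKM). With unnamed transcripts added, Ctgf in control replicate 2 was at 9.94 FPKM and Cd36 in QpE replicate 5 at 6.54 FPKM.

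The difference between the sets changed from 6 h to 24 h (set by time term, limma, adjusted p under 0.05) for these genes, given as the log2 difference at 24 h minus that at 6 h. It fell for Cbx1 (-3.53), Ramp3 (-1.71), Inhba (-1.499), Fosl1 (-1.12), Nfatc1 (-1.10), Kcnn4 (-1.09), Runx1 (-1.06), Il1rl1 (-0.96), Junb (-0.86), Vcl (-0.85), Timp3 (-0.82), Thbs1 (-0.70), Twist2 (-0.66), Spp1 (-0.66), Slc2a1 (-0.63), Timp1 (-0.56), Tgfb1i1 (-0.53), Myh9 (-0.42) and Bag3 (-0.35). It rose for Adamts5 (1.503), the clock gene Dbp (1.39), Serpinb9 (1.08), Fgf10 (0.85), Gstm1 (0.73), Irs1 (0.65), Gstm2 (0.43), Cdkn2b (0.41), Pdia4 (0.37) and Igf2r (0.37). As most of these genes were named for their difference at 6 h, a value nearer 0 at 24 h is favoured by the choice. Cbx1, Junb, Gstm2 and Dbp changed sign with nearly the same size; Dbp was 8.68 against 14.98 FPKM at 6 h and 44.3 ± 2.35 against 28.7 ± 9.04 FPKM at 24 h.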

How the results depend on the processing

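Joining unnamed transcripts gave 656 genes higher and 824 lower at 6 h, means of replicate numbers 103 and 92, the most abundant transcript only 239 and 279, no filter on low values 240 and 249 (27967 genes tested), control libraries alone 5 and 4, and QpE libraries alone 2 and 1, against 396 and 486. Other scalings, pseudocounts, filters and pooled fits stayed within 1.5 times; the share of calls that were higher was 44.9%, 50.4% with median-ratio and 40.1% with TPM scaling. Without 1 replicate number, 67 to 284 genes were higher and 76 to 340 lower at 6 h, 0 to 23 higher and 1 to 46 lower at 24 h, 1 to 22 were called for set by treatment, and 66 to 153 for set by time. At 24 h means of replicate numbers gave 3 higher and 2 lower. Cbx1 (-0.084) and Lpl (-0.91) reversed with joined transcripts, and Lpin1 (0.065) with the most abundant transcript only; the cause was not tested. Of 104 named genes called at 6 h, 41 were also called on means of replicate numbers and 23 in every fit that left out 1 replicate number.

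Whether replicate numbers pair libraries was not settled. At 6 h the correlation of deviations of same-numbered control and QpE libraries was 0.018 to 0.155, and 4 of 5 were best with their own number. At 24 h the correlation was 0.006 to 0.131, and 3 of 5 were best with their own number. At 12 days, the time that chose the sets by number, all 5 were above 0.1 (0.153 to 0.32), but only 2 of 5 were best with their own number. With the replicate number as a block, 466 genes were higher and 563 lower at 6 h, 63 and 77 at 24 h, 0 were called for set by treatment and 412 for set by time. At 6 h the estimated correlation within a number was -0.054, and a value below 0 narrows the standard error of a set difference. That the block ended no call of a named gene therefore does not show that the calls withstand shared cultures. Estimated depth was 10.1 to 15.7 (in units of 1e+06 fragments), and the filter on low values left genes with a mean below 1 FPKM untested.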

Other observations

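Other gene lists held few called members at 6 h. Of 14 tested G1 cyclins and CDK inhibitors, Cdkn2b and Cdkn2c (p15 and p18, which stop cells in G1) were lower, by -0.47 and -0.35. Of 15 tested ER chaperone and unfolded protein response genes, Pdia4, Dnajb9 and Dnajc3 were lower (-0.29, -0.43 and -0.31), and of 19 amino acid and stress response genes Cth and Atf5 (-0.49 and -0.28). Of 12 tested glucocorticoid targets, Hsd11b1, which activates glucocorticoids, was lower (25.9 against 47.0 FPKM, -0.85) with Glul (-0.50). Of 11 tested imprinted genes Mest, a marker of fat expansion (29.04 against 48.4 FPKM, -0.71), Peg3 (-0.43) and Igf2r were lower. Of 12 clock genes Dbp (-0.71) and Tef (-0.24) were lower. Mt1, a metallothionein, was higher (119 ± 30.5 against 70.7 ± 9.63 FPKM, 0.72) and the zinc transporter Slc39a10 lower (-0.37), of 5 tested. The heat shock genes Hspb1 (0.84) and Bag3 (0.50) were higher and Dnaja1 (-0.21) lower, of 13. Fzd4, a Wnt receptor, was the only one called of 14 Wnt genes (-0.52), Bst2 of 20 interferon genes (0.22), Fas of 12 p53 targets (0.25), Hoxa3 of 10 Hox genes (0.59) and Nr4a1 of 8 cAMP response genes. These counts are set against 3.38% of all genes called higher and 4.15% lower. On means of replicate numbers no member of the G1, ER chaperone, clock, Wnt, interferon, p53 or Hox lists was called. Bst2, Fas, Hoxa3, Dbp, Tef, Peg3, Atf5 and Slc39a10 were called in 0 of the 5 fits without a replicate number and not on means. For Fas and Hoxa3 the sets of libraries overlapped, and the locus of Hoxa3 holds 6 genes.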
